A study of Mus musculus with 50 samples.

Results

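Gene expression in wild-type (WT) mammary epithelium was compared between mice of 8 and 10 weeks, the end of puberty and early adulthood. Arrays were chosen by label alone: 8 of the 50 arrays of the series carried RNA of laser-captured WT TEBs or ducts at these ages. A terminal end bud (TEB) is the proliferating tip that leads a duct during puberty, and the duct is the mature tube behind it. The paper describes branching as typically complete by week 10, with TEBs then absent. The WT arrays of TEBs at 10 weeks were taken by label, and what they held was not tested. Each age had 2 TEB and 2 duct arrays of the Affymetrix Mouse Gene 1.0 ST type, all from WT mice. They came from a transgenic line made in CB6F1 mice, a cross of BALB/c and C57BL/6. Transgenic males of the line were crossed with WT littermates, and the paper calls its background mixed. TEB and duct arrays of the same age and replicate number were taken as 1 mouse, so the comparison rests on 2 mice against 2. The mice of an age were littermates. Age and litter therefore cannot be told apart, and p-values cover only the spread between these samples. For comparison, 12 arrays came from 6 DN-Clim mice of the same ages, in which the keratin 14 promoter, active in basal cells, drives a dominant-negative Clim, a cofactor of LIM domain proteins. The second WT duct array of each age is labelled duct in its title and tissue fields and TEB in its description, and both were taken as duct.

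During puberty the TEBs advance through the mammary fat pad under estrogen and growth factors, and they regress once the ducts reach its edge. The adult gland then responds to each estrous cycle, with progesterone acting on hormone-sensing luminal cells. Macrophages and matrix metalloproteinases take part in the remodeling of the stroma around growing ducts. Mammary cells, like most other cells, carry a circadian clock in which CLOCK and ARNTL activate the Per and Cry genes, whose proteins repress them in turn.

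The captured samples carried markers of both epithelial layers at both ages. Krt8, a luminal keratin, had intensities of 6624 to 10993 at 8 weeks and 6497 to 12501 at 10 weeks, and Krt14, a basal keratin, had 1393 to 2039 and 1185 to 1730. The 8 arrays had similar overall levels, with median intensities of 213.6 to 221.3. Ldb1, which encodes the cofactor Clim2, had a difference of 0.04 ± 0.11 (SE) on the log2 scale between the ages and did not pass. Markers of neighboring cells were present too: the summed intensity of 14 adipocyte genes was 74204 to 85308 at 8 weeks and 74632 to 94498 at 10 weeks. The 10 skeletal muscle genes summed to 40096 on the first 10-week duct array, and among them Ckm had 5350 there and 152 to 761 on the other 7 arrays. The second 10-week mouse had the highest levels of the T cell gene Cd3g, 933 in TEB and 463 in duct against 78.4 to 200 on the other 6 arrays. It was also highest for the brown fat gene Cidea, with 1188 and 888 against 146 to 382. The part of these cells in the results was not tested. In samples of mixed cells, fewer cells of a type and less RNA per cell cannot be told apart.

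Of 13362 genes tested, 429 (3.21%) were higher and 405 (3.03%) lower at 10 weeks at an adjusted p under 0.05 (limma with the mouse as a random block, two-sided, Benjamini-Hochberg over all genes), which is 6.24% of the genes. The balance of the directions depended on the scaling, with 387 higher and 496 lower after quantile normalization and 428 and 521 once the arrays had a common mean and variance. The median change of all genes was 0.03 on the log2 scale. Of the 834 genes called, 132 changed at least 2-fold, 72 upward and 60 downward. The arrays of 10 weeks did not overlap those of 8 weeks for 819 of the called genes. Over all genes tested they did not overlap for 23.2%, with 13.2% higher and 10.0% lower. All 834 changed in the same direction in TEB and in duct. They were called on both structures together, so this describes the selection and carries no test. The number called depended on single arrays and on how the arrays of a mouse were weighed. It was 96 without the second 8-week duct array, 259 without the second 10-week TEB array, 357 without the first 8-week duct array and 599 to 1104 without any other array. It was 85 when TEB and duct were averaged per mouse, and 55 without both duct arrays of conflicting label.

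The gene lists were chosen with earlier results of these data known, so their shares of calls are descriptions and carry no test. Among the lists with more than 1 measured gene, the circadian clock had the highest share of calls. The time of day at which the glands were taken is not given in the sources read. Age and time of day therefore cannot be told apart, for these genes or for any other gene reported here. Of 18 measured genes, 9 were higher and 3 lower at 10 weeks, 66.7% of the list beside 6.24% of all genes, and the median change was 0.35. The genes that rose were mostly repressors of the clock and genes under its control, and Arntl, the activator, was among those that fell. The median was 0.38 in TEB and 0.31 in duct. DNA before the start of 4 of the genes that rose is shown because it holds the motifs through which the clock is known to act. Each line gives 250 bases upstream of a RefSeq start in build GRCm38.p6, 5′ to 3′ on the strand of the gene. Capitals mark an E-box, CACGTG, the site of CLOCK and ARNTL, or a D-box, TTATGTAA, TTACATAA or TTACGTAA, the site of DBP, TEF, HLF and NFIL3.
Per1, chr11:69098699-69098948, plus strand: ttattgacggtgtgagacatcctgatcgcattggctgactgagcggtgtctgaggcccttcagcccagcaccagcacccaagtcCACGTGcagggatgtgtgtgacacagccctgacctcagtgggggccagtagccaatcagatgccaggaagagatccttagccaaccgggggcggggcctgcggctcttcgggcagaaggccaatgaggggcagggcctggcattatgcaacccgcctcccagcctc
Cry1, chr10:85185055-85185304, minus strand: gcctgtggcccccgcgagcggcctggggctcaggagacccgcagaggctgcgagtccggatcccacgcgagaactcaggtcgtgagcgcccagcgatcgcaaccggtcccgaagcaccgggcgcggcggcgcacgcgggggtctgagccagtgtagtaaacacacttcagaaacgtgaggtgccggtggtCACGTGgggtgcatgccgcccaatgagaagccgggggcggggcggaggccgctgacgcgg
Ciart, chr3:95882229-95882478, minus strand: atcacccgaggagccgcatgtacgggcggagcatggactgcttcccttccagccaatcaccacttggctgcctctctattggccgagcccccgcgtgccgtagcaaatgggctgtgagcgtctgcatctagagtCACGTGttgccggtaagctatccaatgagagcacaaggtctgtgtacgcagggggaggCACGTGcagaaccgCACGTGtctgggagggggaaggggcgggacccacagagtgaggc
Per3, chr4:151044666-151044915, minus strand: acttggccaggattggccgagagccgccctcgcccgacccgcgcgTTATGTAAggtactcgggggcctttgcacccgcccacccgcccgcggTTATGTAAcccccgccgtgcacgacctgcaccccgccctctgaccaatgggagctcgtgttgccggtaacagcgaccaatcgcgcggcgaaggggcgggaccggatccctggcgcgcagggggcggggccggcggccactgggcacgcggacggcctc

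The window of Per1 shown held 1 E-box, whose first base is at position -166 from the start, and that of Cry1 held 1 at -60. Per1 had 2 windows, for 2 start sites, and the other held none. Ciart, a repressor of CLOCK and ARNTL, held 3 E-boxes, at -116, -58 and -44. Per3 held 2 D-boxes, at -205 and -158, and no E-box. No motifs overlapped. Over all 32851 windows of this length, 6.02% held the E-box and 0.931% a D-box on either strand. Windows were listed for 15 of the 18 clock genes and 5 of these genes held an E-box in at least 1 window, the others being Tef and Bhlhe41. Counted by window, 6 of their 20 (30.0%) held it. The called genes Arntl, Nr1d1, Nfil3 and Usp2 held neither motif, and Per2, Wee1 and Bhlhe40 had no window. A match of letters is a description and says nothing of binding in these samples.

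Among the repressors, Per1 had intensities of 722 and 898 in TEB and 822 and 861 in duct at 8 weeks, and 1537 and 1641 in TEB and 1440 and 1610 in duct at 10 weeks. Every array of 10 weeks was above every array of 8 weeks, and Per1 rose 1.89-fold (log2 change 0.92 ± 0.10, adjusted p = 0.00203). Per2 went from 824 and 920 in TEB and 971 and 1071 in duct to 1685 and 1610 in TEB and 1699 and 1613 in duct (0.81 ± 0.09, adjusted p = 0.00243). Cry1 went from 173 and 148 in TEB and 154 and 171 in duct to 312 and 307 in TEB and 327 and 296 in duct (0.95 ± 0.11, adjusted p = 0.00273). For these 3 genes the ages were well apart in TEB and in duct alike. Wee1, a cell cycle kinase under clock control, went from 405 and 426 in TEB and 441 and 384 in duct to 791 and 810 in TEB and 737 and 860 in duct (0.95 ± 0.09, adjusted p = 0.00127). Per1, Per2, Cry1 and Wee1 passed whichever single array was left out.

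The clock genes that fell were the activator and a pair of repressors. Arntl went from 341 and 326 in TEB and 342 and 307 in duct to 181 and 218 in TEB and 190 and 190 in duct, a fall of 1.69-fold (log2 change -0.76 ± 0.10, adjusted p = 0.00525). Nr1d1, the nuclear receptor that represses Arntl, went from 3474 and 3711 in TEB and 3204 and 3443 in duct to 2435 and 1967 in TEB and 2075 and 1756 in duct (-0.76 ± 0.10, adjusted p = 0.00478). Bhlhe40, a repressor that competes for the E-box, went from 1218 and 1209 in TEB and 1439 and 1266 in duct to 563 and 638 in TEB and 646 and 636 in duct (-1.05 ± 0.08, adjusted p = 0.000627). For all 3 genes every 10-week array was below every 8-week array. Nr1d1 and Bhlhe40 passed without any single array. Arntl did not pass without the second 8-week duct array (adjusted p = 0.0697).

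The other called clock genes rested on fewer fits. Ciart had the largest change of the list, 1.57 ± 0.38 at an adjusted p of 0.047, with 56.5 to 171 at 8 weeks and 293 to 473 at 10 weeks. Nfil3, a repressor at the D-box, changed by 0.88 ± 0.16 (adjusted p = 0.0169) and the deubiquitinase Usp2 by 0.64 ± 0.11 (0.0158). Per3 changed by 0.46 ± 0.10 (0.0324) and the D-box activator Tef by 0.33 ± 0.08 (0.0407). Nfil3 and Usp2 did not pass without the second 8-week duct array (adjusted p = 0.105 and 0.0949) or the second 10-week TEB array (adjusted p = 0.0684 and 0.0619). Ciart, Per3 and Tef passed in 3, 3 and 1 of the 8 fits that left out 1 array, with adjusted p as high as 0.179 for Ciart without the second 10-week TEB array, and 0.15 and 0.222 for Per3 and Tef without the second 8-week duct array. The list had 4 genes higher and 2 lower without the second 8-week duct array, 4 and 3 without the second 10-week TEB array, and 3 and 1 with TEB and duct averaged per mouse. Those 4 were Wee1, Cry1, Per1 and Bhlhe40 (adjusted p = 0.0352, 0.037, 0.0498 and 0.0323). The genes that did not pass were Clock (0.18 ± 0.12), Dbp (0.02 ± 0.09), Hlf (0.05 ± 0.12), Nr1d2 (0.13 ± 0.07), Cry2 (0.36 ± 0.11) and Bhlhe41 (0.13 ± 0.09).

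At 4, 6, 8 and 10 weeks the mean log2 level of Cry1 in WT epithelium was 8.66, 8.04, 7.33 and 8.28, with 8 weeks the lowest. Per1 had 9.72, 10.21, 9.68 and 10.6, which places 4 and 8 weeks together. Nr1d1 had 8.65, 10.61, 11.75 and 11, with 8 weeks the highest. These means are given with no test.

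**Figure D1:**
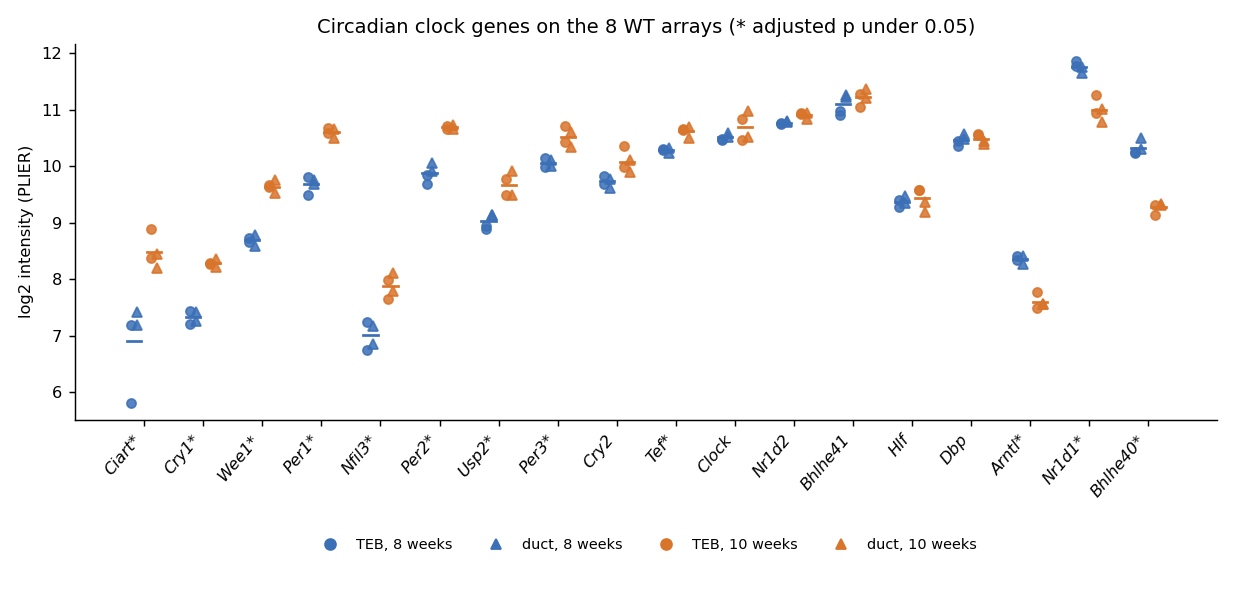
Log2 intensity of the 18 measured clock genes on each of the 8 WT arrays, with circles for TEB, triangles for duct, blue for 8 weeks, orange for 10 weeks, a bar at the mean of an age and an asterisk where the adjusted p was under 0.05. The 10-week values of Cry1, Wee1, Per1 and Per2 lie above all 8-week values, and those of Arntl, Nr1d1 and Bhlhe40 below them.

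Several genes of fatty acid synthesis were lower at 10 weeks. Of 22 measured genes of fatty acid and cholesterol synthesis, 6 were lower and 1 was higher (31.8% beside 6.24%), with a median change of -0.28. The 6 that fell all belong to the fatty acid branch, and the 1 that rose, Hmgcs1, to the cholesterol branch. No other gene of the cholesterol branch passed, so 1 gene does not give the direction of that branch. By mean, 16 of the 22 were lower and 6 higher. The fatty acid branch makes acetyl-CoA in the cytosol, carboxylates and condenses it to palmitate, then elongates and desaturates the chain.

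Acly, which makes acetyl-CoA from citrate, had intensities of 5553 and 5067 in TEB and 5576 and 4667 in duct at 8 weeks, and 1808 and 2167 in TEB and 1615 and 1983 in duct at 10 weeks. It fell 2.76-fold (log2 change -1.47 ± 0.11, adjusted p = 0.000519). Acss2, which makes acetyl-CoA from acetate and was among the 15 largest decreases of all genes, went from 4762 and 3754 in TEB and 4220 and 3843 in duct to 1523 and 1089 in TEB and 1098 and 806 in duct (-1.91 ± 0.17, adjusted p = 0.00102). Every 10-week value of both genes was under the lowest 8-week value. Acss2 is not in the list. Me1, the malic enzyme that supplies NADPH, went from 6547 and 5375 in TEB and 6468 and 5795 in duct to 2959 and 2972 in TEB and 2364 and 2993 in duct (-1.1 ± 0.12, adjusted p = 0.00221).

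The elongase Elovl6 went from 6739 and 5139 in TEB and 6937 and 5966 in duct to 2138 and 2513 in TEB and 1712 and 2144 in duct (-1.55 ± 0.15, adjusted p = 0.00138). Scd2, a stearoyl-CoA desaturase, went from 4152 and 4850 in TEB and 4099 and 3934 in duct to 2151 and 2104 in TEB and 1963 and 2030 in duct (-1.04 ± 0.08, adjusted p = 0.000627). The related desaturase Scd1 did not pass, with 15729 to 17056 at 8 weeks, 15396 to 16606 at 10 weeks and a change of -0.05 ± 0.09. Acaca, the carboxylase, changed by -0.64 ± 0.10 (adjusted p = 0.0108) and Fasn, the synthase, by -0.58 ± 0.10 (0.0154). Acly, Acss2, Me1, Elovl6 and Scd2 passed without any single array, and also with TEB and duct averaged per mouse (adjusted p = 0.0328, 0.0328, 0.0401, 0.0352 and 0.0317). Fasn, Acaca and Hmgcs1 did not pass without the second 8-week duct array (adjusted p = 0.145, 0.0924 and 0.0592), nor did Fasn and Acaca without the second 10-week TEB array (adjusted p = 0.0709 and 0.0509).

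Hmgcs1, which makes the precursor of sterols, had 765 to 889 at 8 weeks and 1122 to 1340 at 10 weeks (0.62 ± 0.08, adjusted p = 0.00506). Srebf1, whose product drives fatty acid genes, had a change of -0.14 ± 0.08 and did not pass (adjusted p = 0.339). Thrsp, a lipogenic regulator, had -0.63 ± 0.19 (0.0904). Slc2a5, a fructose transporter, was among the 15 largest decreases and went from 248 and 201 in TEB and 271 and 176 in duct to 66 and 78.7 in TEB and 49.9 and 69.6 in duct (-1.76 ± 0.20, adjusted p = 0.00273), passing without any single array. Fat cells express many of these enzymes. The summed adipocyte markers overlapped between the ages. The 1 of 14 that passed (7.14% beside 6.24%), the lipid droplet protein Plin4, was higher at 10 weeks (0.57 ± 0.09, adjusted p = 0.0103). In DN-Clim 1 of the 14 was lower and none higher, with a median of -0.27. The part of fat cells in the fall of these enzymes was not tested, and for these genes too age and time of day cannot be told apart. Plin4 did not pass without the second 8-week duct array (adjusted p = 0.103) or the second 10-week TEB array (adjusted p = 0.0516). Over the 4 ages the mean log2 level of Acly was 11.91, 12.01, 12.34 and 10.88.

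Markers of macrophages were lower at 10 weeks in 7 of 11 measured genes (63.6% beside 6.24%), none was higher, and the median change was -0.62. The summed intensity of the 11 genes was 11437 to 13638 at 8 weeks and 7135 to 8661 at 10 weeks, so the ages did not overlap. Csf1r, the receptor of the growth factor CSF1, had intensities of 1218 and 1161 in TEB and 1082 and 1178 in duct at 8 weeks, and 761 and 703 in TEB and 659 and 660 in duct at 10 weeks. It fell 1.67-fold (log2 change -0.74 ± 0.08, adjusted p = 0.00184) and passed without any single array.

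Adgre1, the gene of the F4/80 antigen, went from 701 and 636 in TEB and 546 and 563 in duct to 406 and 368 in TEB and 334 and 364 in duct (-0.73 ± 0.09, adjusted p = 0.00372). Cd68, a lysosomal glycoprotein, went from 825 and 767 in TEB and 532 and 578 in duct to 368 and 428 in TEB and 322 and 354 in duct (-0.86 ± 0.11, adjusted p = 0.00443). At 8 weeks both genes were higher in TEB than in duct in each mouse. Lyz2, which encodes lysozyme, changed by -0.92 ± 0.17 (adjusted p = 0.0165), the adaptor Tyrobp by -0.66 ± 0.12 (0.0175), Mpeg1 by -0.62 ± 0.12 (0.0226) and the complement gene C1qb by -0.55 ± 0.08 (0.00889). Mrc1 (-0.34 ± 0.09), C1qc (-0.44 ± 0.11), C1qa (-0.11 ± 0.10) and Cd163 (-0.07 ± 0.13) did not pass. Adgre1, Cd68, Lyz2, Tyrobp, Mpeg1 and C1qb did not pass without the second 8-week duct array (adjusted p = 0.0705, 0.0664, 0.0949, 0.132, 0.21 and 0.0924), nor did Lyz2 and Mpeg1 without the first 8-week duct array (adjusted p = 0.053 and 0.0634) and Tyrobp without the second 10-week TEB array (adjusted p = 0.0729). Of the 11, Csf1r alone was called without the second 8-week duct array, and with mouse means Csf1r, Cd68 and Adgre1 were (adjusted p = 0.049, 0.044 and 0.0443).

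The genes that follow were among the 15 largest decreases, stood in none of the lists, and were taken up here after their values were seen for their known expression in immune cells. Retnla, a secreted protein of alternatively activated macrophages, went from 3711 and 3029 in TEB and 3231 and 3004 in duct to 1072 and 1235 in TEB and 739 and 1438 in duct (-1.57 ± 0.20, adjusted p = 0.00459). The lectin gene Cd209a, which has close paralogs that can share probes, went from 926 and 584 in TEB and 963 and 913 in duct to 342 and 256 in TEB and 245 and 284 in duct (-1.57 ± 0.21, adjusted p = 0.00525). Both had all 10-week values below all 8-week values. Slamf7, a receptor on lymphoid and myeloid cells, changed by -1.89 ± 0.29 (adjusted p = 0.00844), and Atp6v0d2, a proton pump subunit of osteoclasts and macrophages, by -2.38 ± 0.43 (0.0162). Rnase2a, an eosinophil ribonuclease with close paralogs, had 437 to 775 at 8 weeks and 11.2 to 168 at 10 weeks (-3.66 ± 0.84, adjusted p = 0.0389). Retnla, Cd209a, Slamf7 and Atp6v0d2 did not pass without the second 8-week duct array (adjusted p = 0.0502, 0.0592, 0.0525 and 0.0528), nor did Atp6v0d2 without the second 10-week TEB array (adjusted p = 0.0718). Rnase2a passed in 2 of the 8 fits that left out 1 array, with adjusted p as high as 0.132 without the second 8-week duct array. None of the 13 lymphocyte genes (Cd3g at 1.03 ± 0.71) and 4 mast cell genes (Tpsb2 at -0.55 ± 0.22) passed. Of 7 antigen presentation genes 1 was called (14.3% beside 6.24%). That gene, H2-Eb1, was lower (-0.39 ± 0.08, adjusted p = 0.0295), at 0.207 without the second 8-week duct array.

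**Figure D2:**
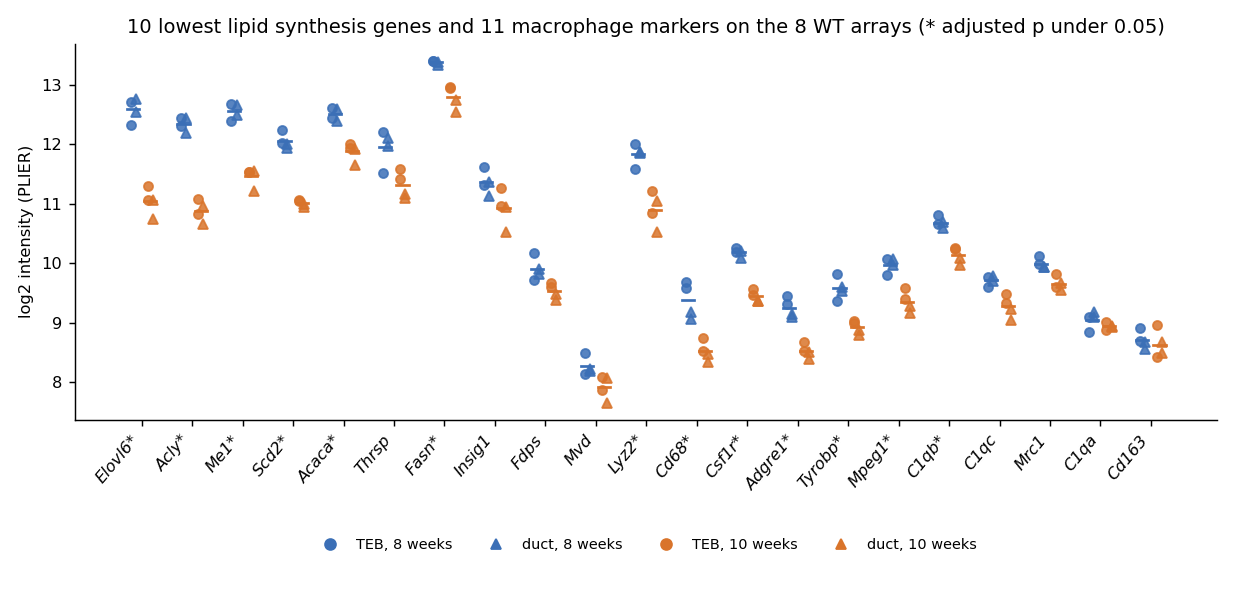
Log2 intensity on each of the 8 WT arrays for the 10 genes of fatty acid and cholesterol synthesis with the lowest change and for the 11 macrophage markers, with circles for TEB, triangles for duct, blue for 8 weeks, orange for 10 weeks and a bar at the mean of an age. The 10-week values of Acly, Elovl6, Me1, Scd2, Csf1r and Adgre1 lie below all 8-week values.

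Matrix metalloproteinases cut collagen and other matrix proteins. Of 13 measured metalloproteinases and inhibitors 4 were lower and none higher (30.8% beside 6.24%), with a median change of -0.33. Mmp11 had intensities of 1635 and 1487 in TEB and 977 and 1169 in duct at 8 weeks, and 470 and 489 in TEB and 487 and 438 in duct at 10 weeks. The TEB values exceeded the duct values at 8 weeks and overlapped them at 10 weeks, but the change did not pass the test of a difference between the structures (adjusted p = 0.885). Mmp11 fell 2.74-fold (log2 change -1.46 ± 0.15, adjusted p = 0.00151) and passed without any single array. Mmp3 went from 1491 and 1123 in TEB and 1182 and 1219 in duct to 484 and 344 in TEB and 464 and 535 in duct (-1.47 ± 0.18, adjusted p = 0.00353). Mmp2 changed by -0.55 ± 0.11 (adjusted p = 0.0279), and Mmp14, whose product activates that of Mmp2, by -0.46 ± 0.09 (0.0203). Mmp3 and Mmp14 did not pass without the second 8-week duct array (adjusted p = 0.0672 and 0.141), nor did Mmp14 without the first 8-week duct array (adjusted p = 0.0676) or the second 10-week TEB array (adjusted p = 0.0869). Mmp2 passed in 4 of the 8 fits that left out 1 array, with adjusted p as high as 0.176 without the second 8-week duct array. The number of the list called was 1 without the second 8-week duct array and 2 without the first, or without the second 10-week TEB array. At 4, 6, 8 and 10 weeks the mean log2 level of Mmp3 was 8.24, 8.2, 10.28 and 8.82 and that of Mmp11 8.5, 9.14, 10.33 and 8.88.

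Of 18 fibroblast and matrix genes 6 were lower and 1 was higher (38.9% beside 6.24%), with a median change of -0.36. Their summed intensity was 67426 to 73305 at 8 weeks and 54109 to 64747 at 10 weeks. Fibronectin, Fn1, changed by -0.82 ± 0.19 (adjusted p = 0.0389), and the collagens Col1a2, Col5a1 and Col5a2 by -0.71 ± 0.17 (0.0425), -0.56 ± 0.14 (0.0472) and -0.53 ± 0.12 (0.038). Pdgfra, a growth factor receptor on fibroblasts, was the gene that rose (0.35 ± 0.08, adjusted p = 0.0307). No member was lower without the first or the second 8-week duct array, the first 8-week TEB array or the second 10-week TEB array, 1 was without the second 8-week TEB array and 4 without the second 10-week duct array. None was called with mouse means. Pdgfra had an adjusted p of up to 0.21, without the second 8-week duct array. Of 18 endothelial genes 1 was called (5.56% beside 6.24%), Sox18, which was lower (-0.62 ± 0.12, adjusted p = 0.02). Sox18 did not pass without the second 8-week duct array (adjusted p = 0.196) or the second 10-week TEB array (adjusted p = 0.0787).

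Wnt signaling maintains mammary stem cells and takes part in branching, and 8 of its 27 measured genes were lower and none higher (29.6% beside 6.24%), with a median change of -0.30. The receptor Lgr5, a marker of basal stem cells, had intensities of 488 and 457 in TEB and 917 and 948 in duct at 8 weeks, and 244 and 355 in TEB and 304 and 339 in duct at 10 weeks. The 8-week ducts stood above all other arrays. Lgr5 fell 2.16-fold (log2 change -1.11 ± 0.23, adjusted p = 0.0257). Among secreted members, the modulator Sfrp2 changed by -0.83 ± 0.16 (adjusted p = 0.0203) and Dkk3 by -0.68 ± 0.09 (0.00525), and the ligands Wnt5a and Wnt5b by -0.65 ± 0.09 (0.0054) and -0.60 ± 0.09 (0.00749). The receptors Fzd7 and Fzd2 changed by -0.66 ± 0.11 (0.0144) and -0.44 ± 0.10 (0.032), and Nkd1, a feedback inhibitor, by -0.55 ± 0.10 (0.0187). Wnt4, a ligand induced by progesterone (0.22 ± 0.15), and the target gene Axin2 (-0.28 ± 0.16) did not pass. Lgr5, Sfrp2, Dkk3, Wnt5a, Wnt5b, Fzd7 and Nkd1 did not pass without the second 8-week duct array (adjusted p = 0.218, 0.145, 0.0547, 0.0628, 0.0972, 0.0847 and 0.19), nor did Lgr5 and Sfrp2 without the first 8-week duct array (adjusted p = 0.0665 and 0.0613) and Fzd7 and Nkd1 without the second 10-week TEB array (adjusted p = 0.0593 and 0.075). Fzd2 passed in 2 of the 8 fits that left out 1 array, with adjusted p as high as 0.26 without the second 8-week duct array. None of the 27 was called without the second 8-week duct array, 5 were without the first, and 5 without the second 10-week TEB array. With mouse means Lgr5 alone passed (adjusted p = 0.049).

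Of 17 basal stem cell factors, Lgr5 and the tetraspanin Tspan8 (-1.12 ± 0.21, adjusted p = 0.0193) were lower, which is 11.8% beside 6.24% of all genes. Of 17 basal markers, Krt5, the partner keratin of Krt14, went from 1650 and 1510 in TEB and 2440 and 2228 in duct to 1137 and 1033 in TEB and 1511 and 1016 in duct (-0.73 ± 0.15, adjusted p = 0.029), and Col17a1, a hemidesmosome collagen, changed by -0.76 ± 0.18 (adjusted p = 0.0403). These 2 genes are 11.8% of the basal markers, beside 6.24% of all genes. The values of both genes overlapped between the ages. Krt14 had -0.35 ± 0.15 and did not pass. None of the 13 pan-luminal markers passed, with Krt8 at -0.03 ± 0.26. Tspan8 and Krt5 did not pass without the first 8-week duct array (adjusted p = 0.0541 and 0.0784) or the second 8-week duct array (adjusted p = 0.124 and 0.217), nor did Krt5 without the second 10-week TEB array (adjusted p = 0.0709). Col17a1 passed in 3 of the 8 fits that left out 1 array, with adjusted p as high as 0.187 without the second 8-week duct array.

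In FGF and ErbB signaling 2 of 21 measured genes were higher and 2 lower (19% beside 6.24%). Etv4, a transcription factor downstream of FGF receptors, had 88.5 to 123 at 8 weeks and 162 to 225 at 10 weeks (0.95 ± 0.17, adjusted p = 0.0153). The receptor Fgfr3 rose by 0.61 ± 0.08 (adjusted p = 0.0056), and Fgfr1 changed by -0.44 ± 0.08 (0.0162). Fgfr2, the receptor of FGF7 and FGF10, had intensities of 5265 and 5132 in TEB and 5446 and 5719 in duct at 8 weeks, and 3943 and 3938 in TEB and 4810 and 4445 in duct at 10 weeks (-0.34 ± 0.08, adjusted p = 0.0428). Its 10-week values all lay below its 8-week values. Etv4, Fgfr1 and Fgfr3 did not pass without the second 8-week duct array (adjusted p = 0.0504, 0.125 and 0.0801), nor did Etv4 and Fgfr1 without the second 10-week TEB array (adjusted p = 0.0718 and 0.0649). Fgfr2 passed in 1 of the 8 fits that left out 1 array, with adjusted p as high as 0.253 without the second 8-week duct array. Erbb2 (-0.12 ± 0.15) and Erbb3 (-0.06 ± 0.10) did not pass. None of the 8 Clims and their partners passed, among them Lmo1 (-0.48 ± 0.17), Lmo2 (-0.37 ± 0.23) and Ldb2, the gene of Clim1 (-0.09 ± 0.28).

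Of 13 hormone-sensing luminal genes and hormone targets 2 were higher and 1 lower (23.1% beside 6.24%). Greb1, a target and cofactor of the estrogen receptor, had intensities of 38.1 and 44.8 in TEB and 47.8 and 46.3 in duct at 8 weeks, and 366 and 145 in TEB and 279 and 132 in duct at 10 weeks. Its levels were higher in the first 10-week mouse than in the second, and it rose by 2.25 ± 0.34 (adjusted p = 0.00822). Pgr, the progesterone receptor gene, went from 1956 and 2303 in TEB and 2314 and 2460 in duct to 3491 and 3423 in TEB and 3710 and 3534 in duct, a rise of 1.57-fold (log2 change 0.65 ± 0.08, adjusted p = 0.00459). Esr1, the estrogen receptor gene, had 1896 to 2077 at 8 weeks and 1662 to 2161 at 10 weeks and did not pass (-0.06 ± 0.11, adjusted p = 0.751). Cited1, an estrogen receptor cofactor, was lower (-1.03 ± 0.20, adjusted p = 0.0203). Fkbp5, a co-chaperone of steroid receptors that glucocorticoids and progesterone induce, was among the 15 largest increases, with 177 to 221 and 443 to 1042 (1.77 ± 0.29, adjusted p = 0.0106). Greb1, Pgr, Fkbp5 and Cited1 did not pass without the second 8-week duct array (adjusted p = 0.0504, 0.0528, 0.0504 and 0.176), nor did Cited1 without the first 8-week duct array (adjusted p = 0.0567) or the second 8-week TEB array (adjusted p = 0.0548). The list had 2 higher and 4 lower without the first 10-week duct array, and 4 and 2 without the second.

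Genes of luminal progenitors and of epithelial defence held calls in both directions. Ltf, the iron-binding lactoferrin, had intensities of 299 and 347 in TEB and 1003 and 823 in duct at 8 weeks, and 1535 and 1375 in TEB and 2272 and 2180 in duct at 10 weeks. Ducts were above TEBs at both ages, and Ltf rose 3.32-fold (log2 change 1.73 ± 0.22, adjusted p = 0.00459). Of the 7 other luminal progenitor genes, Lbp (-1.05 ± 0.16, adjusted p = 0.00778), Itgb3 (-0.71 ± 0.14, 0.02) and Aldh1a3 (-0.71 ± 0.13, 0.0194) were lower, so that 4 of 8 passed beside 6.24% of all genes. In epithelial defence 5 of 10 passed, with the chemokine Cxcl15 higher (1.24 ± 0.21, adjusted p = 0.0115). The lectin Chil1 (-1.19 ± 0.19, adjusted p = 0.0103) and the mucins Muc1 (-0.71 ± 0.11, 0.00829), Muc16 (-0.68 ± 0.14, 0.0265) and Muc20 (-0.64 ± 0.12, 0.0203) were lower. Muc15, in the milk and alveolar list, was lower (-1.1 ± 0.19, adjusted p = 0.0151), and the other 8 genes of that list did not pass (11.1% called beside 6.24%). Ltf, Lbp, Itgb3, Aldh1a3, Chil1, Muc1, Muc16, Muc20 and Muc15 did not pass without the second 8-week duct array (adjusted p = 0.0729, 0.067, 0.146, 0.187, 0.0895, 0.114, 0.123, 0.166 and 0.107), nor did Itgb3, Aldh1a3, Muc16, Muc20, Muc15 and Cxcl15 without the second 10-week TEB array (adjusted p = 0.0693, 0.0568, 0.0828, 0.0869, 0.0508 and 0.0504) and Aldh1a3 without the first 8-week duct array (adjusted p = 0.0571). With mouse means Ltf passed (adjusted p = 0.0205).

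Ribosome biogenesis genes act in the nucleolus on ribosomal RNA. All 27 measured had a higher mean at 10 weeks, beside 7406 of the 13362 genes, 9 passed (33.3% beside 6.24%), and the median change was 0.37. In DN-Clim the median was 0.03, 17 of the 27 had the same sign as in WT, and none was called. Nop56, a core protein of box C/D snoRNPs, had intensities of 1061 and 843 in TEB and 1038 and 988 in duct at 8 weeks, and 1551 and 1605 in TEB and 1707 and 1533 in duct at 10 weeks (0.71 ± 0.10, adjusted p = 0.00568). Wdr12 (0.64 ± 0.11), Nop58 (0.57 ± 0.12) and Nop2 (0.55 ± 0.13) rose at adjusted p-values of 0.0158, 0.0303 and 0.0389. The calls were lost easily: none was made without the second 8-week duct array, 1 without the second 10-week TEB array, 2 without the first 8-week duct array, 5 without the second 8-week TEB array, and none with mouse means. Myc, a known driver of this program, had 0.58 ± 0.11 (adjusted p = 0.0193). Nop56, Wdr12 and Myc did not pass without the second 8-week duct array (adjusted p = 0.0528, 0.0697 and 0.0935), nor did Wdr12 and Myc without the second 10-week TEB array (adjusted p = 0.0778 and 0.0834) and Myc without the first 8-week duct array (adjusted p = 0.0549).

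Among immediate-early and heat shock genes 4 of 22 were higher and 1 lower (22.7% beside 6.24%). Egr1, a transcription factor induced within minutes of a stimulus, had intensities of 1089 and 1188 in TEB and 924 and 989 in duct at 8 weeks, and 303 and 421 in TEB and 285 and 467 in duct at 10 weeks. It fell 2.89-fold (log2 change -1.53 ± 0.17, adjusted p = 0.00273) and passed without any single array. Jun (0.88 ± 0.18, adjusted p = 0.0279), Zfp36 (0.65 ± 0.09, 0.00506) and Klf6 (0.49 ± 0.09, 0.0142), also immediate-early genes, rose. Zfp36 and Klf6 did not pass without the second 8-week duct array (adjusted p = 0.0535 and 0.116), nor did Klf6 without the second 10-week TEB array (adjusted p = 0.0501). Jun passed in 3 of the 8 fits that left out 1 array, with adjusted p as high as 0.106 without the second 8-week duct array. In the unfolded protein response Asns (0.83 ± 0.14, adjusted p = 0.0134), Herpud1 (0.61 ± 0.11, 0.0176) and Pdia6 (0.52 ± 0.11, 0.0243) were higher, which is 3 of 16 (18.8% beside 6.24%). Asns and Herpud1 did not pass without the second 8-week duct array (adjusted p = 0.071 and 0.0638) or the second 10-week TEB array (adjusted p = 0.0507 and 0.0709), nor did Herpud1 without the first 8-week duct array (adjusted p = 0.0558). Pdia6 passed in 4 of the 8 fits that left out 1 array, with adjusted p as high as 0.186 without the second 8-week duct array.

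Of 40 cell division genes 1 was called (2.50% beside 6.24%). That gene was Mcm6, a subunit of the replicative helicase, which went from 888 and 1057 in TEB and 958 and 911 in duct to 579 and 516 in TEB and 613 and 504 in duct (-0.79 ± 0.10, adjusted p = 0.00506) and passed without any single array. Of the 40, 19 were under 200 on all 8 arrays, and 21 were left when the filter used these arrays alone. The arrays of 10 weeks lay further apart than those of 8 weeks. The summed intensity of the list was 8021 to 9122 on the arrays of 8 weeks and 5841 to 11180 on those of 10 weeks. Mki67, the Ki-67 antigen of dividing cells, had 359 to 413 on the 8-week arrays. At 10 weeks it was 557 in TEB and 370 in duct of the first mouse and 113 and 104 in the second, and its change of -0.80 ± 0.51 did not pass (adjusted p = 0.36). Of 13 imprinted growth genes, the noncoding RNA Meg3 (-0.90 ± 0.13, adjusted p = 0.00792) and Plagl1 (-0.62 ± 0.09, 0.00801) were lower (15.4% beside 6.24%). Meg3 and Plagl1 did not pass without the second 8-week duct array (adjusted p = 0.082 and 0.0964).

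The remaining lists gave at most 1 call each. No call was made among 12 cornified envelope genes (Sprr1a at -1.16 ± 0.59), 17 interferon response genes (Rsad2 at 0.61 ± 0.16), 8 brown adipocyte genes (Cox8b at 0.94 ± 0.34) and 10 skeletal muscle genes (Ckm at 1.6 ± 1.26). Oxidative phosphorylation gave Ndufb3 (0.71 ± 0.16, adjusted p = 0.0385), hypoxia and glycolysis Bnip3 (0.59 ± 0.14, 0.0477), red blood cells Alas2 (0.76 ± 0.18, 0.0417) and Schwann cells Cdh19 (1.01 ± 0.22, 0.0349), all higher. These single calls were 5.26% of 19, 10% of 10, 100% of 1 and 25% of 4 measured genes, beside 6.24% of all genes. Ndufb3, Bnip3, Alas2 and Cdh19 passed in 2, 1, 1 and 3 of the 8 fits that left out 1 array, with adjusted p as high as 0.138, 0.243 and 0.206 for Ndufb3, Alas2 and Cdh19 without the second 8-week duct array, and 0.168 for Bnip3 without the second 10-week TEB array. The 19 oxidative phosphorylation genes all had a higher mean at 10 weeks, beside 7406 of all 13362 genes, with a median of 0.33 in TEB and 0.09 in duct. Their summed intensity overlapped between the ages, at 31455 to 52229 at 8 weeks and 47675 to 52482 at 10 weeks. In DN-Clim the median was -0.2, and 2 of the 19 had the same sign as in WT.

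**Figure D3:**
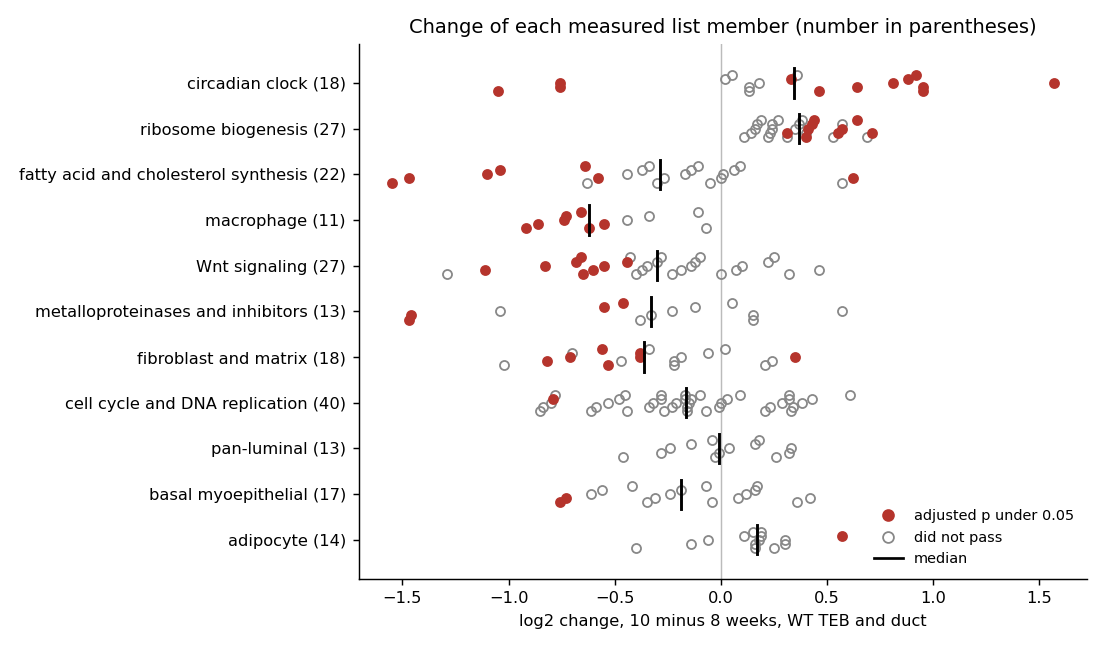
Log2 change from 8 to 10 weeks of every measured member of 11 lists, 1 point a gene, red where the adjusted p was under 0.05, with a black bar at the list's median. The 11 macrophage points all lie below 0, the 27 ribosome biogenesis points all above it, and the clock holds calls on both sides.

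The largest changes were mostly in genes outside these lists. Among genes whose ages did not overlap, the 15 largest increases were Dscam, Trim12a, Ifi202b, Aoc1, Cdcp3, Syn2, Mfsd2a, Nrxn3, R3hdml, Ptpn5, Vmn1r38, Greb1, Rgs2, Abcc8 and Fkbp5, from 4.69 to 1.77. The 15 largest decreases were Pwwp3b, Rnase2a, Atp6v0d2, Acss2, Slamf7, Slc2a5, Hhipl2, Scg3, Gdpd3, Cd209a, Retnla, Elovl6, Snhg11, Egr1 and Fgg, from -4.74 to -1.53. Dscam and Nrxn3 encode adhesion molecules, Syn2 a synapsin, Ptpn5 a phosphatase, Abcc8 a subunit of a potassium channel and Scg3 a granin. Probes for Trim12a, Ifi202b, Vmn1r38, Rnase2a and Cd209a may also read close paralogs, so these are uncertain. Aoc1, Cdcp3, Greb1 and Fkbp5 among the increases and Rnase2a, Atp6v0d2, Slamf7, Hhipl2, Cd209a, Retnla, Snhg11 and Fgg among the decreases did not pass without the second 8-week duct array, with adjusted p-values from 0.0502 for Retnla to 0.146 for Fgg. The other genes of these 30 passed without any single array. Aoc1, Cdcp3, Hhipl2 and Snhg11 did not pass without the second 8-week duct array (adjusted p = 0.0545, 0.0535, 0.0527 and 0.0735), nor did Aoc1 and Snhg11 without the second 10-week TEB array (adjusted p = 0.071 and 0.0682) and Cdcp3 and Snhg11 without the first 8-week duct array (adjusted p = 0.0608 and 0.053). Fgg passed in 4 of the 8 fits that left out 1 array, with adjusted p as high as 0.146 without the second 8-week duct array.

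Nrxn3 had intensities of 489 and 607 in TEB and 418 and 580 in duct at 8 weeks, and 3045 and 3599 in TEB and 3803 and 3703 in duct at 10 weeks. Its 10-week arrays were within a narrow range, and it rose 6.8-fold (log2 change 2.77 ± 0.15, adjusted p = 0.000243). Syn2 went from 279 and 278 in TEB and 293 and 272 in duct to 3360 and 1807 in TEB and 3302 and 1711 in duct (3.11 ± 0.23, adjusted p = 0.000519), with the first 10-week mouse above the second. Rgs2, a brake on G protein signaling, went from 462 and 414 in TEB and 517 and 560 in duct to 1511 and 1810 in TEB and 1998 and 1620 in duct (1.83 ± 0.12, adjusted p = 0.000428). Mfsd2a, a transporter of lysophosphatidylcholine, went from 221 and 225 in TEB and 204 and 176 in duct to 1953 and 1434 in TEB and 2304 and 1019 in duct (2.96 ± 0.24, adjusted p = 0.000627). Aoc1, the diamine oxidase, went from 216 and 73.4 in TEB and 494 and 374 in duct to 5876 and 1459 in TEB and 6468 and 1559 in duct (3.71 ± 0.68, adjusted p = 0.017), and here too the first 10-week mouse was above the second.

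Some of these genes also differed widely between mice of 1 age. Trim12a had intensities of 6.67 and 13.5 in TEB and 12.3 and 11.9 in duct at 8 weeks, and 259 and 315 in TEB and 219 and 317 in duct at 10 weeks (4.68 ± 0.32, adjusted p = 0.000428). Its change was 3.1 with values under 32 set to 32. At 4 weeks, however, 2 WT mice had 149 to 216 and the third 19.8 and 7.69, and at 6 weeks 2 had 140 to 231 and the third 17.1 and 16.3. Among the DN-Clim mice, 1 of 3 at 4 weeks had 8.84 and 11.2, 1 of 2 at 6 weeks 24.6 and 9.66 and 1 of 3 at 8 weeks 17 and 17.1, where the other mice of those ages had 103 to 231, 163 and 179 and 179 to 270. Low and high mice were thus found within 4 and 6 weeks in WT, while the 2 mice of 8 weeks were both low and the 2 of 10 weeks both high.

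Pwwp3b differed between mice in a like way. It had intensities of 2001 and 1631 in TEB and 2534 and 2323 in duct at 8 weeks, and 106 and 38.5 in TEB and 211 and 44.6 in duct at 10 weeks (-4.74 ± 0.47, adjusted p = 0.0014). The 6 WT mice of 4 and 6 weeks had 39.5 to 363, where 39.5 came from the 6-week TEB array that stood apart. The first DN-Clim mouse of 8 weeks had 1601 and 2415 in TEB and duct, and the other 2 had 209 to 252. That mouse was also the one of low Trim12a at 8 weeks, and its Dscam was 60.8 and 55.9 where the other 2 had 480 to 1092. In WT, Dscam went from 33.6 and 33.4 in TEB and 36.3 and 37 in duct to 533 and 2087 in TEB and 445 and 1366 in duct (4.69 ± 0.46, adjusted p = 0.00138), and the WT mice of 4 and 6 weeks lay between, at 59.9 to 402.

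**Figure D4:**
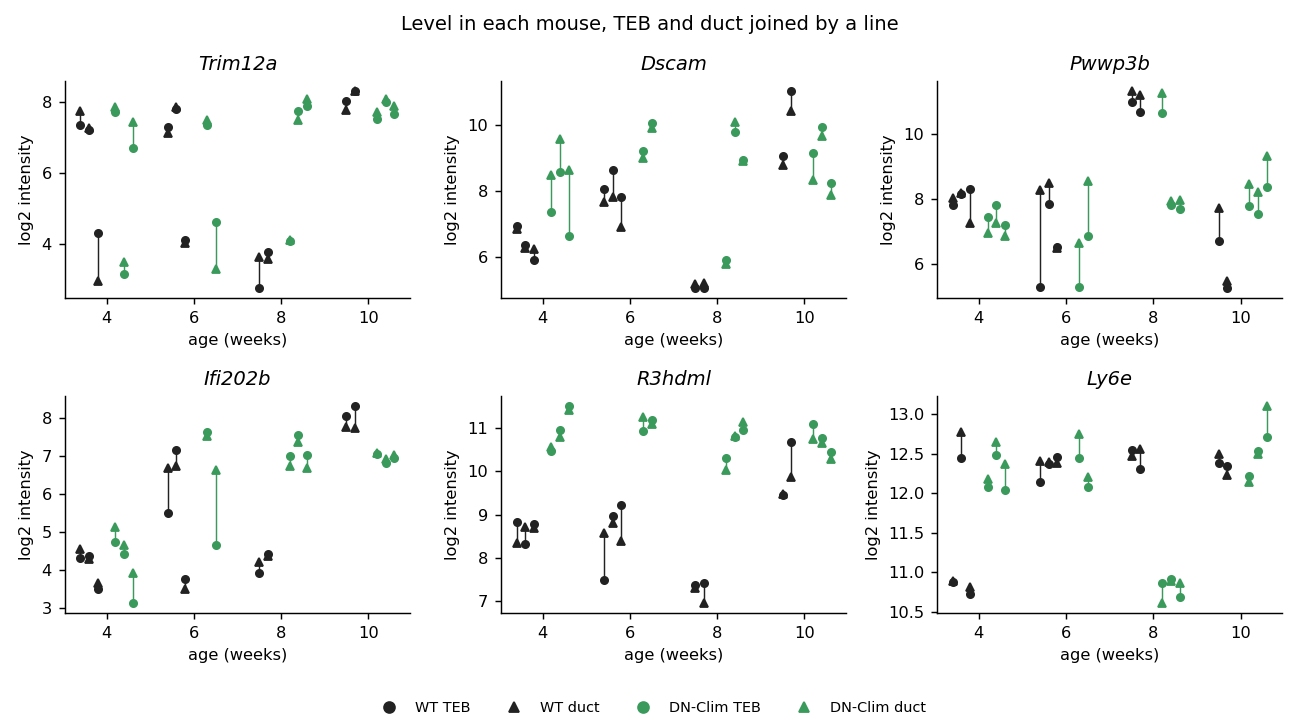
Log2 intensity of 6 genes in each of the 21 mice by age in weeks, with WT in black, DN-Clim in green, and the TEB and duct of a mouse joined by a line. Trim12a has low and high mice at 4 and 6 weeks, and 1 DN-Clim mouse of 8 weeks stands near the 2 WT mice of that age for Trim12a, Dscam and Pwwp3b.

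Within single structures fewer genes passed. In TEB 98 genes (0.733%) were higher and 89 (0.666%) lower, 1.4% of all. In duct 59 (0.442%) were higher and 107 (0.801%) lower, 1.24% of all. This balance turned with the duct arrays of conflicting label: 40 were higher and 27 lower with both taken as TEB, and 4 higher and 0 lower without them. The share of higher genes among the calls in TEB, 52.4%, was 39.0% after quantile normalization and 40.7% once all arrays had been given the same mean and variance. Where leaving out an array left 1 of a structure at an age, that array was assumed to vary like the other groups. The TEB count of 187 was 51 without the first or the second 8-week duct array, 1553 without the first 8-week TEB array and 48 without the second. It was 325 and 320 without the first and second 10-week duct arrays, and 28 and 13 without the first and second 10-week TEB arrays. The duct count of 166 was 1 without either 8-week duct array, and 76 and 77 without the first and second 10-week TEB arrays. By limma, 0 genes had a change that differed between TEB and duct at an adjusted p under 0.05, with 536 at an unadjusted p under 0.05. This count was 264 without the first 8-week TEB array and 2 without the second 10-week duct array. Ciart changed by 2.13 in TEB and 1.01 in duct (adjusted p of the difference 0.885), and Lgr5 by -0.68 and -1.54 (0.885).

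The DN-Clim mice were littermates of the WT mice of their age. In their 12 arrays 60 genes (0.449%) were higher and 163 (1.22%) lower at 10 weeks, 1.67% of all. Of the 834 genes called in WT, 645 (77.3%) had the same sign in DN-Clim, beside 56.7% of all genes, 65 were called in the same direction and 2 in the opposite one. Clock genes were among the 65, and all 18 had the same sign as in WT. In DN-Clim 5 of the 18 were higher and 1 was lower, beside 0.449% and 1.22% of all genes. In DN-Clim too, age cannot be told apart from litter or from time of day. Per2 changed by 1.52 ± 0.21 (adjusted p = 0.00106) in DN-Clim, and Cry1 by 0.80 ± 0.10 (adjusted p = 0.000663). Per3 had 0.88 ± 0.20 (adjusted p = 0.0287), Per1 0.45 ± 0.11 (adjusted p = 0.0474) and Arntl -0.89 ± 0.20 (adjusted p = 0.03). Bhlhe41, which did not pass in WT, had 0.50 ± 0.10 (adjusted p = 0.0141). Bhlhe40, Wee1, Nr1d1, Ciart, Nfil3, Usp2 and Tef, called in WT, did not pass in DN-Clim. The test of the difference between the genotypes passed for none of the 18.

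In DN-Clim too, 6 of the 22 fatty acid and cholesterol genes were lower, beside 1.22% of all genes, and none was higher. Acly changed by -1.36 ± 0.20 (adjusted p = 0.00231), Me1 by -1.14 ± 0.23 (adjusted p = 0.0188), and Acaca by -0.99 ± 0.20 (adjusted p = 0.0185). Fasn had -0.72 ± 0.17 (adjusted p = 0.0331), and Acss2, which is not in the list, had -1.64 ± 0.31 (adjusted p = 0.011). None of the 11 macrophage genes was called in DN-Clim, their median was 0.17, and 1 had the same sign as in WT. Csf1r had 0.11 ± 0.12 (adjusted p = 0.792), and Cd68 had 0.10 ± 0.14 (adjusted p = 0.862). None of the metalloproteinases was called either, with Mmp11 at 0.09 ± 0.35 (adjusted p = 0.964). The test of the difference between the genotypes did not pass for these genes (adjusted p = 0.117 for Csf1r, 0.134 for Cd68 and 0.415 for Mmp11), so their changes were not shown to differ. Pgr rose in DN-Clim (0.89 ± 0.18, adjusted p = 0.0191), and Cited1 fell (-1.77 ± 0.30, adjusted p = 0.00701).

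The change differed between WT and DN-Clim for 3 genes, 2 upward (0.015%) and 1 downward (0.00748%), together 0.0225% of all (limma over the 20 arrays, adjusted p under 0.05), with 1106 at an unadjusted p under 0.05. Ifi202b, an interferon-inducible gene, had 15.3 to 21.7 at 8 weeks and 212 to 318 at 10 weeks in WT (3.73 ± 0.24, and 2.97 with values under 32 set to 32) and 102 to 188 and 112 to 134 in DN-Clim. The difference of the changes was 3.82 ± 0.31 (adjusted p = 1.34e-06). In WT mice of 6 weeks Ifi202b varied by mouse, with 45.7 to 142 in 2 mice and 13.7 and 11.3 in the third. The 45.7 came from the 6-week TEB array that stood apart. R3hdml had 124 to 170 and 701 to 1634 in WT and 1049 to 2231 and 1239 to 2187 in DN-Clim, a difference of 2.61 ± 0.36 (adjusted p = 0.00261). Its DN-Clim levels at both ages were above all 8-week WT levels. Ly6e, a surface antigen, had 5062 to 6029 and 4817 to 5806 in WT and 1561 to 1934 and 4515 to 8842 in DN-Clim, a difference of -1.83 ± 0.23 (adjusted p = 0.00108). Levels as low were also found in 2 of the 3 WT mice of 4 weeks, at 1686 to 1902, where the other had 5580 and 7024.

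**Figure D5:**
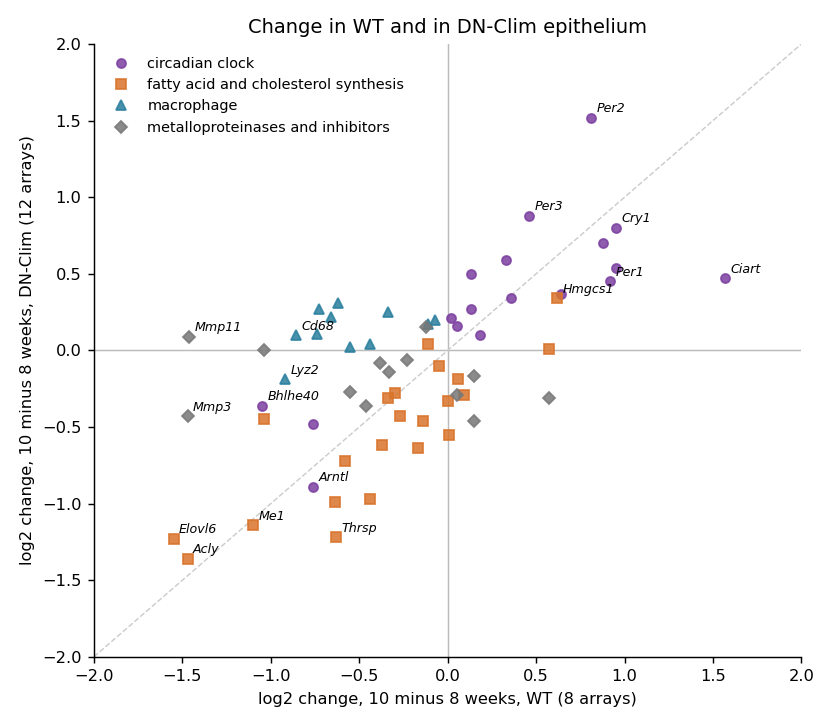
Log2 change from 8 to 10 weeks in WT (x axis, 8 arrays) against that in DN-Clim (y axis, 12 arrays) for the measured members of 4 lists. The 18 clock genes lie in the upper right and lower left, the fatty acid genes lean to the lower left, and the macrophage markers lie left of 0.

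Over the 4 ages of WT mice, the called genes often had their extreme at 8 weeks. The 8-week mean was the highest for 349 (86.2%) of the 405 genes that were lower at 10 weeks, beside 29.7% of all genes. It was the lowest for 300 (69.9%) of the 429 that were higher, beside 30.2% of all genes. The 10-week mean was the highest for 286 (66.7%) of the 429, beside 22.6%, and the lowest for 159 (39.3%) of the 405, beside 12.7%. The genes were called on these ages, so the shares describe them and carry no test.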

How the data were processed

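RNA of laser-captured TEBs and ducts, cut to keep out stroma and fat, was hybridized to Affymetrix Mouse Gene 1.0 ST arrays. The deposited values are linear probe set intensities that the authors made with PLIER, and its version, background correction and normalization are not given in the sources read. No further normalization was applied. Of 35557 probe sets, 22693 reached an intensity of 200 on at least 1 of 42 laser capture arrays. GEO's platform annotation gave 1 symbol for 21789 probe sets, several for 1621 and none for 12147, and each of 13362 genes was read from its brightest probe set over the 42 arrays. Of the 834 called genes 51 had more than 1 probe set, and in 2 of them another ran the other way. Values under 1 were set to 1 before log2.

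Age was fitted with structure as a covariate on the 8 WT arrays in limma 3.58.1 (R 4.3.3), with the mouse as a random block (consensus correlation 0.267) and a variance trend. The scripts were tested on simulated data. Mouse identity was taken from age and replicate number, since the methods count mice as replicates. The deviations of TEB and duct from their group means correlated at r = 0.134 at 8 weeks and 0.645 at 10 weeks. Arrays of 4 per age limit the precision, and the conflicting labels of 2 duct arrays were tried both ways.

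The members and the 33 gene lists were chosen with earlier results of these data known. The lists named 564 genes, of which 526 were on the array and 480 were measured. Named genes were the 15 largest increases and decreases among called genes whose ages did not overlap, up to 4 called members a list with the largest change, or 2 with the largest change where none passed, and a fixed set of Ldb1, Ldb2, Krt14, Krt8, Mki67, Esr1, Pgr, Fgfr2, Erbb2 and Erbb3. Areg, also in that set, is not analysed here. Other genes named, among them the further clock, lipid, macrophage and Wnt genes, Ly6e, Cd3g and Cidea, were chosen after their values were seen. Upstream sequences came from RefSeq, build GRCm38.p6. Alternatives changed the normalization, filter, floor, block, variance trend, probe set rule and arrays used.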

Additional observations from a re-analysis of the deposited data

Results flagged for a closer look

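In 11 of 310 groups of 4 arrays, over 155 genes, 1 array stood far from the other 3 by Dixon's test at its 95% critical value, which chance alone passes in about 1 in 20 groups of like samples, whereas each group here held 2 TEB and 2 duct arrays. The 8-week TEB replicate 2 was low for Krt8 (6624), Ciart (56.5) and Cd209a (584), and had 1331 for Klf6. The 8-week duct replicate 2 had 252 for Cdcp3 and 142 for Rsad2. At 10 weeks, duct replicate 1 had 3522 for the muscle gene Myh4, 2364 for Me1 and 1822 for Nr1d2. Duct replicate 2 had 803 for Lmo2, and TEB replicate 1 had 563 for Bhlhe40.

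The change from 8 to 10 weeks differed between WT and DN-Clim, by limma's test of the difference, for Ifi202b (3.82), R3hdml (2.61) and Ly6e (-1.83), on the log2 scale as the WT change minus the DN-Clim change.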

How the results depend on the processing

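The 834 genes of WT epithelium were 738 to 1025 under quantile normalization, a common mean and variance, no filter, a filter on the 8 arrays, a floor of 32, all 20 WT arrays, no variance trend and the mean of probe sets. The count was 1522 with no replicate block, 85 with TEB and duct averaged per mouse, and 509 at an unadjusted p under 0.01 with at least 1.5-fold. It was 1949 with replicate number as a fixed term in place of the mouse block, which joins different mice of 8 and 10 weeks. Without the 2 duct arrays of conflicting label it was 55, and 1583 with them taken as TEB. Without 1 array it ran from 96 to 1104, and without both arrays of a mouse from 55 to 2277 (55 and 68 without the first and second mouse of 8 weeks, 1873 and 2277 without those of 10 weeks). A lone mouse, or a lone array of a structure, is then assumed to vary like the other groups. In TEB the count was 340 with all 20 WT arrays, 18 without the conflicting arrays, 2425 with them as TEB, and 13 to 1553 without 1 array. In duct it was 101 with no variance trend, 4 without the conflicting arrays, 67 with them as TEB, and 1 to 151 without 1 array. The count of genes that differed between TEB and duct, 0, was 1 without the conflicting arrays, 3 with them as TEB, and 0 to 264 without 1 array. The count that differed between WT and DN-Clim, 3, was 5 with a common mean and variance, 15 with no filter, 151 with no replicate block, and 3 to 4 without 1 of its 20 arrays. The leaving out of DN-Clim arrays was chosen after seeing the data. With no replicate block TEB had 173 calls, duct 139 and their difference 0. The cause of these shifts was not tested.

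Of the 114 named genes that were called, 108 kept the call under quantile normalization, 109 with a common mean and variance, 105 with no variance trend, 91 with all 20 WT arrays, 31 with TEB and duct averaged per mouse and 20 without the conflicting arrays. Without 1 array 31 to 110 kept it, with 31 without the second 8-week duct array, and none changed direction in these fits. With 2 mice an age, calls depend on how the arrays of a mouse are treated.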
